A study of Mus musculus with 12 samples.

Results

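The 8 genes of the suppressor of cytokine signalling family, *Cish* and *Socs1* to *Socs7*, were followed across the arrays with every probe that the probe-to-gene table assigns to them, and the brightest probe stood for the gene in counts of members. This gave 15 of the 45281 probes and 8 of the 15663 genes tested, since each member had at least 1 probe that passed the filter on low signals. The samples were 12 Illumina Mouse WG-6 v2 arrays of CD4+ T cells from Foxp3GFP mice, in which a green fluorescent protein marks cells that express *Foxp3*, the lineage factor of regulatory T (Treg) cells. There were 4 arrays of TregHAR cells, induced from naive CD4+ cells with low TGF-β plus harmine, 4 arrays of Treghi cells, induced with high TGF-β without harmine, and 4 arrays of the naive cells themselves. Harmine is a plant alkaloid that inhibits DYRK kinases. Within each set, 2 arrays derived from naive cells isolated by fluorescence-activated sorting (FACS) and 2 from naive cells isolated magnetically (MACS), and the GFP+ cells of all 8 Treg arrays were sorted by FACS at day 4 of culture. Per the study's methods, Treg cultures were activated with antibodies to CD3 and CD28 and fed with interleukin 2. No array of low TGF-β alone was analysed here, so an effect of harmine cannot be told apart from one of the TGF-β concentration. Nor was any array of cells activated without TGF-β. In comparisons with naive cells, Treg identity therefore cannot be told apart from activation, culture or interleukin 2. The sources used here do not say whether replicates were separate animals or cultures. Naive replicates 1 and 2 differed in genes of the sex chromosomes, as given below, so they were not repeats of 1 RNA sample. Every p-value reflects array-to-array spread, which may be technical in part.

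Cytokines such as interleukin 2 bind receptors that carry Janus kinases (JAKs), which phosphorylate STAT transcription factors, and the STATs switch on genes that include several SOCS genes. SOCS proteins then bind phosphorylated receptors or the kinases through an SH2 domain, and recruit elongins B and C and cullin 5 through the SOCS box so that the bound protein is ubiquitinated. *Cish* and *Socs2* are known as targets of STAT5, the STAT that interleukin 2 activates and that Treg cells need to keep *Foxp3* expressed. *Socs1* and *Socs3* can also block the kinases directly, *Socs1* mainly after interferons and interleukin 2 and *Socs3* mainly after interleukin 6 and other cytokines that signal through gp130.

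Of the labels' defining genes, *Il2ra*, which encodes CD25, exceeded naive cells at least 12.4-fold in TregHAR and at least 8.44-fold in Treghi cells, and was not above background on any naive array. *Ctla4*, an inhibitory receptor of Treg cells, was higher by log2 differences of 2.41 ± 0.31 and 2.70 ± 0.31 (SE). On its brightest probe *Foxp3* itself was not higher. Its mean log2 level was 6.99 in TregHAR and 6.87 in Treghi cells, against 7.22 in naive cells (limma, adjusted p of 0.253 and 0.0849), and its 3 other probes differed from naive cells by between -0.02 and 0.19. These 3 probes were close to or under the background ceiling. Among them, 1 was above background on 2 TregHAR, 3 Treghi and 0 naive arrays. Its Treghi arrays (6.21 or more) lay above its naive arrays (6.15 or less), while its TregHAR arrays overlapped them. The label of Foxp3-positive cells was therefore not borne out by the brightest *Foxp3* probe, which was above background on every naive array, and the dim probes do not settle it. *Cd4* gave -0.92 ± 0.17 in TregHAR (adjusted p = 0.00251) and -0.50 ± 0.17 in Treghi cells (adjusted p = 0.0607), and *Ccr7* gave -0.68 ± 0.23 and 0.01 ± 0.23, neither past the threshold. B cell, myeloid and erythroid genes were brighter in naive arrays, most of all after MACS. The summed intensity of 10 B cell genes was 1292.91 to 1633.92 on TregHAR and 1374.48 to 1805.1 on Treghi arrays, against 2663.65 to 3093.94 on naive FACS and 13391.6 to 16262.9 on naive MACS arrays. That of 19 myeloid genes was 2027.08 to 2449.29 on TregHAR and 2227.55 to 2490.82 on Treghi arrays, against 4406.49 to 7667.46 on naive FACS and 18579.8 to 36237 on naive MACS arrays. Erythroid and platelet genes (6) summed to 398.859 to 480.775 on TregHAR and 371.017 to 397.162 on Treghi arrays, against 1743.5 to 18913.3 on naive arrays. Compared with naive cells, 7 of these B cell and 17 of these myeloid genes were lower in TregHAR and 6 and 15 in Treghi cells, and 0 were higher in either. Among all genes tested 13.7% were called lower in TregHAR and 13.2% in Treghi cells. The 8 genes of CD8 T and NK cells together were not brighter on naive FACS than on TregHAR arrays, but were brighter there than on Treghi arrays. They summed to 2959.86 to 3717.46 on TregHAR and 2311.19 to 2649.64 on Treghi arrays, against 2896.26 to 3562.62 on naive FACS and 4731.05 to 4864.26 on naive MACS arrays, with 1 gene higher and 2 lower in TregHAR and 1 higher and 5 lower in Treghi cells. In bulk RNA, fewer cells of a type and less RNA per cell cannot be told apart. On each array 29.9% to 30.2% of the probes exceeded background. Quantile normalization makes this share nearly equal on all arrays, so it does not compare their detection. Precision is limited by there being 12 arrays.

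Promoter sequences were available for 4 members in the RefSeq table of build GRCm38.p6, and are shown for the 3 that JAK-STAT signalling is known to induce. Each is the 250 bases before the gene's start, 5′ to 3′ on the gene's own strand, and lies at chr9:107296409-107296658 (plus strand) for *Cish*, chr16:10785537-10785786 (minus strand) for *Socs1* and chr11:117969367-117969616 (minus strand) for *Socs3*. Capitals mark matches to TTCNNNGAA, the core of the site that most STATs bind, in *Socs3*, and to GAAANNGAAA, the core of the interferon response element, in *Socs1*, which holds 2 overlapping copies. The second motif was added after the sequences had been seen.
Cish: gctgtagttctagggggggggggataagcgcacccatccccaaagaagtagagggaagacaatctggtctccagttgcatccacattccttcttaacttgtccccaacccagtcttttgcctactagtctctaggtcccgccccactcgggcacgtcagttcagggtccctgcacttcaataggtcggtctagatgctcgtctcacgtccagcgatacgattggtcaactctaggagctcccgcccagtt
Socs1: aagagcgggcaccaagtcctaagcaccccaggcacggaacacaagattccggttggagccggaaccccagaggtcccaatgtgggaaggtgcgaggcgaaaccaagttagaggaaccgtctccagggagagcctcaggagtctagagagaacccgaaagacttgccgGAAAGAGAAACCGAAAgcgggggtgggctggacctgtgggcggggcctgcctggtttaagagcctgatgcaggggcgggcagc
Socs3: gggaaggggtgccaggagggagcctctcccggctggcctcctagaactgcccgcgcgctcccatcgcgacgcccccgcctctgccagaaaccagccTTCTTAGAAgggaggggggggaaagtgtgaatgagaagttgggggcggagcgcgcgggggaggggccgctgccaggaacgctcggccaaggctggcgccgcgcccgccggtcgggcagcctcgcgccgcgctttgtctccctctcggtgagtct

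Both motifs were searched on both strands. The STAT core reads the same on either strand, and its 1 match among the 4 members was TTCTTAGAA in *Socs3*, whose first base lies 154 bases before the start. Of the 32851 promoters in the table, 7.02% held this core in the same window. The interferon core occurred in 2.98% of them, and 0.18% held 2 or more copies as *Socs1* did. The windows of *Cish* and *Socs4* held neither motif, which says only that these letters are not in those 250 bases.

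*Cish* and *Socs2* were the members that separated Treg from naive cells most. The *Cish* probe had log2 levels of 12.59 and 12.32 (FACS) and 12.45 and 12.49 (MACS) on the TregHAR arrays. It had 12.19, 12.32, 12.39 and 12.57 on the Treghi arrays, and 8.31, 7.66, 8.38 and 8.01 on the naive arrays, each in the order FACS, FACS, MACS, MACS. All 8 Treg arrays lay more than 3 log2 units above every naive array, and naive cells were themselves above background. The log2 difference from naive cells was 4.37 ± 0.14 (SE, n = 4 arrays each) in TregHAR cells, or 20.7-fold (limma, adjusted p = 3.8e-08), and 4.28 ± 0.14 in Treghi cells, or 19.4-fold (adjusted p = 4.84e-08). It ranked 5th and 8th from the top among the 15663 genes.

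*Socs2*, best known as the inhibitor of growth hormone signalling, gave log2 levels of 12.56, 12.78, 13.17 and 12.59 on the TregHAR arrays. The Treghi arrays had 12.58, 12.38, 12.13 and 13.07, against 6.28, 6.13, 6.55 and 6.55 on the naive arrays, 1 of which, FACS replicate 2, was not above background. The Treg arrays were near the bright end of the scale and the naive arrays at or just over its floor. The difference from naive cells was 6.40 ± 0.19 in TregHAR cells, 84.5-fold (adjusted p = 2.27e-08), and 6.16 ± 0.19 in Treghi cells, 71.7-fold (adjusted p = 3.42e-08), the largest rise of any gene tested in both comparisons. Because the naive level lay at the floor, the size depended on the background treatment. The log2 difference in TregHAR cells was 5.68 in the authors' normalized values and 7.17 with a smaller offset, and in Treghi cells 5.48 and 6.93. The other *Socs2* probe, whose accession AK033206 is not among those of the gene in the RefSeq table, was not above background on any array and differed from naive cells by 0.07 and 0.11, so the mean over both probes gave smaller differences of 3.24 in TregHAR and 3.14 in Treghi cells.

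Among arrays from FACS-purified cells alone *Cish* was higher by 4.47 in TregHAR and 4.27 in Treghi cells and *Socs2* by 6.46 and 6.28, where the *Socs2* values stand against a naive FACS mean of 6.21, just under the background ceiling. Among MACS arrays *Cish* was higher by 4.28 and 4.29 and *Socs2* by 6.34 and 6.05.

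**Figure D1:**
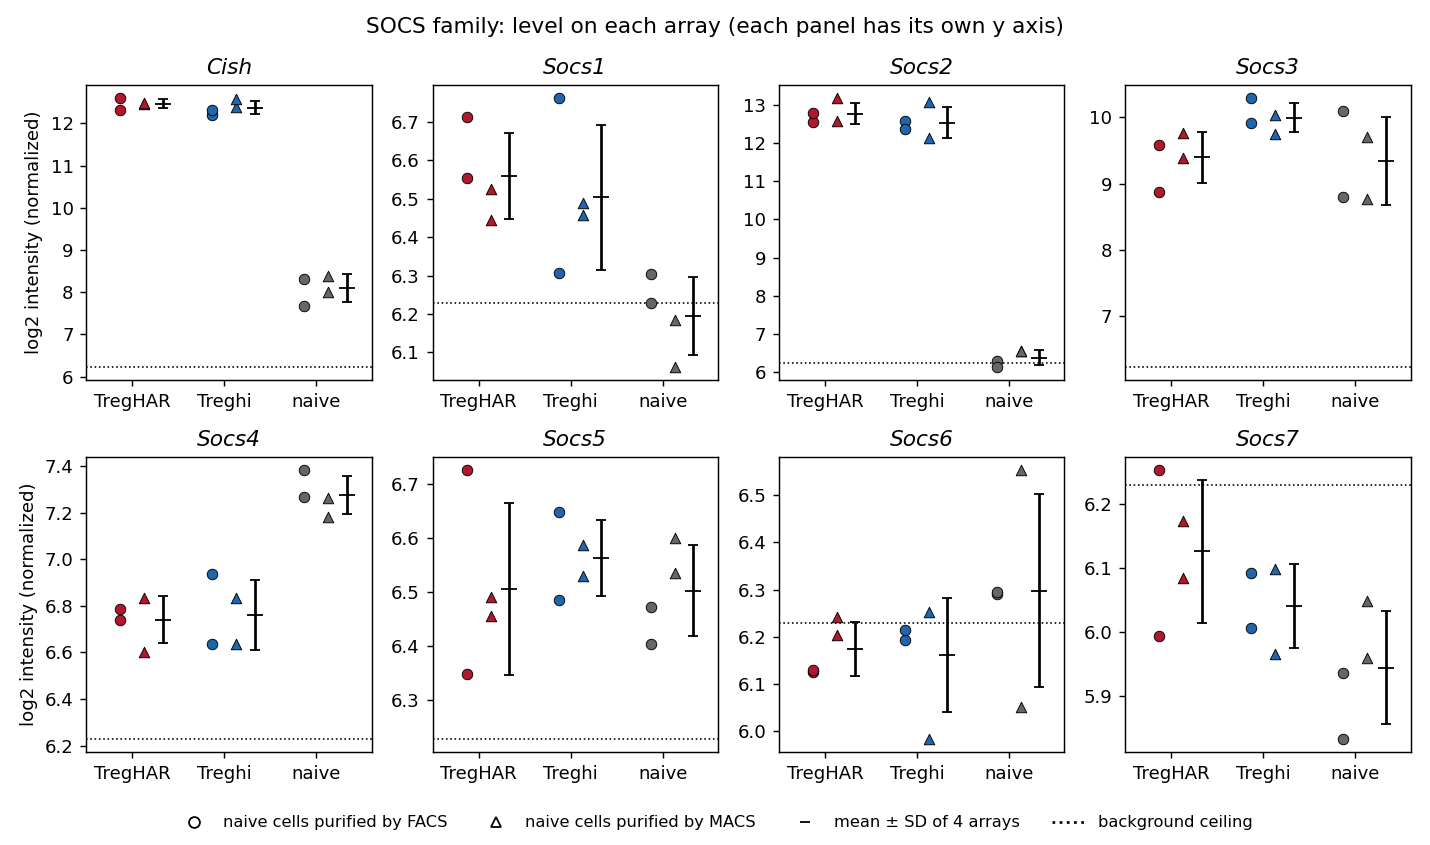
Normalized log2 intensity (y axis, own range in each panel) of the representative probe of each SOCS family gene on every array of TregHAR, Treghi and naive cells. Circles are arrays from FACS-purified and triangles from MACS-purified naive cells, bars are the mean ± SD of 4 arrays and the dotted line is the background ceiling of 6.23. *Cish* and *Socs2* are far higher on all 8 Treg arrays, *Socs4* is lower on all 8, and *Socs6* and *Socs7* lie around or under the ceiling.

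*Socs1*, which inhibits JAKs and is needed for stable Treg cells in mice, was dim. Its log2 levels were 6.71, 6.55, 6.44 and 6.53 on the TregHAR arrays and 6.31, 6.76, 6.49 and 6.46 on the Treghi arrays, against 6.23, 6.30, 6.06 and 6.18 on the naive arrays, where only the FACS arrays were above background. Each Treg array was above each naive array, although the lowest Treghi array (6.31) and the highest naive array (6.30) nearly met. The difference from naive cells was 0.36 ± 0.10 in TregHAR cells (limma, adjusted p = 0.0178) and 0.31 ± 0.10 in Treghi cells (adjusted p = 0.041). Both calls depended on single arrays. That of TregHAR cells ended without TregHAR FACS replicate 1 (adjusted p = 0.0664), TregHAR MACS replicate 2 (0.0562), naive FACS replicate 1 (0.0626) or naive MACS replicate 1 (0.0559), and within FACS (0.103) or MACS arrays (0.101). That of Treghi cells ended in 9 of the 12 fits that left out 1 array, with adjusted p of up to 0.12, and stayed without either TregHAR FACS array or without Treghi FACS replicate 1. It also ended without background correction (0.0555), in the authors' normalized values (0.0659), with a replicate block (0.0559) and within FACS (0.266) or MACS arrays (0.121).

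*Socs3*, which binds gp130 and restrains STAT3, was well above background on all 12 arrays and spread widely. It gave log2 levels of 8.87, 9.58, 9.76 and 9.38 on the TregHAR arrays. It gave 9.91, 10.29, 10.04 and 9.75 on the Treghi arrays, and 8.79, 10.10, 8.76 and 9.71 on the naive arrays. The highest TregHAR array lay just above the lowest Treghi array, and both ranges overlapped that of naive cells. *Socs3* differed from naive cells by 0.06 ± 0.31 in TregHAR (limma, adjusted p = 0.933) and by 0.66 ± 0.31 in Treghi cells (adjusted p = 0.168), neither past the threshold.

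*Eif2s3y*, a gene of the Y chromosome, had a signal on 2 naive arrays, FACS and MACS replicate 2, at log2 levels of 8.07 and 8.08, against 5.96 and 6.07 on FACS and MACS replicate 1. *Xist*, made from the inactive X chromosome, had log2 levels of 5.76 and 5.84 where naive arrays carried the *Eif2s3y* signal and 8.19 and 8.47 where they did not, while all 8 Treg arrays had 8.98 to 10.49. In naive cells the mean *Socs3* level was 9.90 with the *Eif2s3y* signal and 8.78 without it. In TregHAR cells it was 9.57 with and 9.22 without, and in Treghi cells 10.02 with and 9.97 without. The arrays with the signal were the replicates numbered 2 in naive and Treghi cells and the MACS arrays in TregHAR cells, so that its part in the *Socs3* values cannot be told apart from replicate or purification within a group. The naive arrays with the signal were also brighter for myeloid genes. *S100a8* was at 11.10 (FACS) and 13.23 (MACS) with it, against 9.82 and 12.31 without. *Lyz2* was at 9.18 and 11.48, against 7.93 and 10.42. The part of myeloid cells in the *Socs3* values was not tested. On Treg arrays the *Eif2s3y* signal was weaker, at 6.38 to 6.99, and *Xist* was above background beside it. A block for the signal thus puts unlike states together and does not adjust for sex. With the signal as a block the *Socs3* difference from naive cells stayed short of the threshold in TregHAR (limma, adjusted p = 0.914) and Treghi cells (adjusted p = 0.0953). Without naive FACS replicate 2 the Treghi difference was 0.98 (adjusted p = 0.0297).

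*Socs4*, a member linked to receptors for epidermal growth factor, was the only member called lower in Treg cells. Its log2 levels were 6.74, 6.79, 6.83 and 6.60 on the TregHAR arrays and 6.64, 6.93, 6.64 and 6.83 on the Treghi arrays, against 7.38, 7.27, 7.26 and 7.18 on the naive arrays. The groups did not overlap, and every array was above background. It fell by 0.53 ± 0.09 on the log2 scale in TregHAR cells (limma, adjusted p = 0.00125) and by 0.51 ± 0.09 in Treghi cells (adjusted p = 0.00174). The differences among FACS arrays were -0.56 and -0.54 and those among MACS arrays -0.50 and -0.49. The second probe of the gene, above background on 6 arrays, gave -0.02 and 0.08, and with the mean of both probes the Treghi difference was -0.22 (adjusted p = 0.058).

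*Socs5*, which inhibits interleukin 4 signalling in T cells, was above background on all 12 arrays and had nearly the same level in each group. It was about as dim as *Socs1*, so the size of a difference may be understated. Its log2 levels ran between 6.35 and 6.73 on the TregHAR, 6.49 and 6.65 on the Treghi and 6.40 and 6.60 on the naive arrays. The difference from naive cells was 0.003 ± 0.085 in TregHAR (95% interval -0.19 to 0.19) and 0.06 ± 0.08 in Treghi cells (-0.13 to 0.25). Its other probe was above background on 0 arrays.

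*Socs6* and *Socs7*, which act mainly on receptor tyrosine kinases and insulin signalling, were at the edge of detection. The brightest of 4 *Socs6* probes exceeded background on 1 TregHAR, 1 Treghi and 3 naive arrays, and the other 3 probes on none. Its mean log2 level was 6.17 ± 0.06 in TregHAR and 6.16 ± 0.12 in Treghi cells, against 6.30 ± 0.20 in naive cells (SD, n = 4 each), with differences of -0.12 ± 0.10 and -0.14 ± 0.10 (SE) that did not pass. Without naive MACS replicate 1 they were -0.25 (adjusted p = 0.0423) and -0.26 (adjusted p = 0.0356). The *Socs7* probe used exceeded background on 1 TregHAR array and no other, with 6.13 ± 0.11 in TregHAR and 6.04 ± 0.06 in Treghi cells against 5.95 ± 0.09 in naive cells. Its difference in TregHAR cells was 0.18 ± 0.07 (adjusted p = 0.108), and 0.25 without TregHAR FACS replicate 2 (adjusted p = 0.0382). The second *Socs7* probe gave 0.24 and 0.14 and was not above background on any array, so no fold is given for it. Its TregHAR arrays did not overlap the naive arrays, and it passed in TregHAR cells when p-values were adjusted over all probes (limma, adjusted p = 0.0247).

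Against naive cells the family thus had 3 members higher, 1 lower and 4 that did not pass, in TregHAR and likewise in Treghi cells. In Treghi cells 2 were higher without background correction, in the authors' normalized values and with a replicate block, since *Socs1* no longer passed. Over all genes tested 27.5% were called in TregHAR cells, 13.8% higher and 13.7% lower, and 26% in Treghi cells, 12.8% higher and 13.2% lower. The 2 comparisons share the naive arrays. The median log2 difference of the 8 members was 0.12 in TregHAR and 0.20 in Treghi cells, against -0.01 and -0.005 over all genes. With other background corrections or scalings the members' median ran between 0.07 and 0.22 in TregHAR and between 0.11 and 0.37 in Treghi cells. The Treg arrays did not overlap the naive arrays for the same 4 members in both comparisons, where 26.7% of all genes showed no overlap in the TregHAR and 26.7% in the Treghi comparison.

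**Figure D2:**
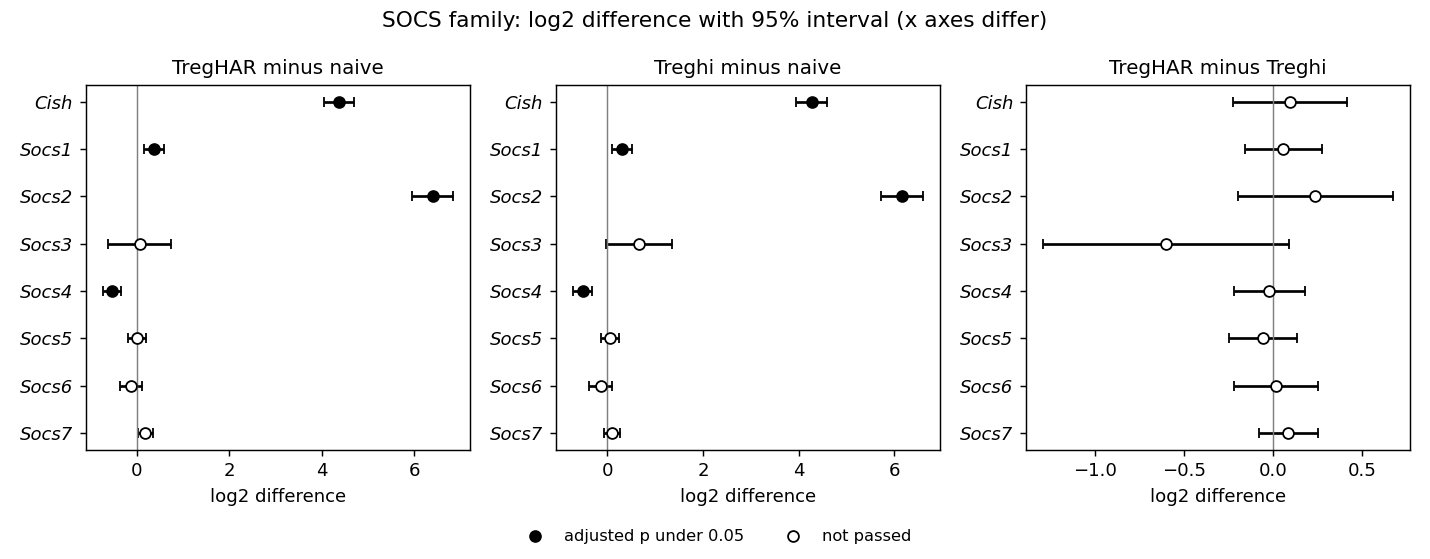
Log2 difference (x axis, with a range of its own in each panel) of the 8 SOCS family genes in TregHAR minus naive, Treghi minus naive and TregHAR minus Treghi cells, with 95% intervals from limma. Filled points passed an adjusted p of 0.05 over all genes. *Cish*, *Socs1*, *Socs2* and *Socs4* are filled in both comparisons with naive cells, and no point is filled in the third panel.

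The comparison of TregHAR with Treghi cells asked whether the inhibitors differed between cells made with harmine and cells made with high TGF-β. It called 0 of the 8 members, where 0.466% of all genes were called. Of the probes that stood for the members 0 had an unadjusted p under 0.05 in limma, against 1687 of the 15663 genes tested. *Socs3* had the largest difference, -0.60 ± 0.31 (limma, adjusted p = 0.564), with a 95% interval of -1.29 to 0.09, and ranked 102nd from the bottom. Of the 4 TregHAR arrays, 3 lay below all 4 Treghi arrays. The difference was -0.87 among FACS arrays and -0.32 among MACS arrays.

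For the members that rose most the difference between the Treg groups was small against the rise. *Socs2* gave 0.24 ± 0.19 (95% interval -0.20 to 0.67) and *Cish* 0.09 ± 0.14 (-0.23 to 0.42). *Socs1* gave 0.06 ± 0.10 (-0.16 to 0.27) and *Socs4* -0.02 ± 0.09 (-0.22 to 0.18). The remaining members, *Socs5*, *Socs6* and *Socs7*, lay between -0.06 and 0.09. The lower ends of their 95% intervals reached -0.25 for *Socs5* and the upper ends 0.25 for *Socs6* and *Socs7*. On the probes that stood for the 8 members TregHAR and Treghi arrays overlapped, whereas 6.56% of all genes showed no overlap. One of the dim *Socs6* probes, above background on no array, did not overlap. It was lower in TregHAR than in Treghi cells by 0.18 (limma, unadjusted p = 0.0218, adjusted p = 0.504 over all probes).

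How the naive cells had been purified made no detectable difference. MACS minus FACS was called for 0 of 8 members in TregHAR, Treghi and naive cells, and the smallest unadjusted p was 0.243, for *Socs2* in naive cells (0.34 ± 0.27). Over all genes 0% were called in TregHAR, 0% in Treghi and 1.39% in naive cells. The difference of the purification effect between treatments was also called for 0 members, where 0% of genes passed between TregHAR and Treghi, 0.543% between TregHAR and naive and 0.562% between Treghi and naive cells.

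The other genes of the pathway were taken from lists by role. Against naive cells, 13.8% of all genes were called higher and 13.7% lower in TregHAR, and 12.8% and 13.2% in Treghi cells. Between TregHAR and Treghi cells 0.466% of all genes were called. Of 16 tested receptors for cytokines that act on T cells, 3 rose and 5 fell in TregHAR cells against naive cells, and 2 rose and 5 fell in Treghi cells. *Il2ra* rose, while *Il7r*, the interleukin 7 receptor, gave -2.49 ± 0.17 and -2.37 ± 0.17 and *Il27ra*, the interleukin 27 receptor, -2.24 ± 0.13 and -2.28 ± 0.13. *Il6ra*, the interleukin 6 receptor, was the 1 receptor called between the Treg groups, with a log2 level of 8.67 in TregHAR and 9.64 in Treghi cells and a difference of -0.97 ± 0.14 (adjusted p = 0.0336). That call was lost with the authors' normalized values. Of the 4 JAKs, *Jak2* (-0.67 ± 0.13) and *Tyk2* (-0.66 ± 0.10) fell in TregHAR cells and only *Tyk2* in Treghi cells (-0.79 ± 0.10), and *Jak2* had the smallest p of the list between TregHAR and Treghi cells (-0.51 ± 0.13, adjusted p = 0.153). Of 6 STATs, *Stat4* (-0.65 ± 0.14) and *Stat6* (-0.47 ± 0.11) fell in TregHAR and *Stat4* in Treghi cells (-0.68 ± 0.14), and the smallest p between the Treg groups was that of *Stat6* (-0.25 ± 0.11, adjusted p = 0.426).

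Genes known as targets of interleukin 2 and STAT5, to which *Cish* and *Socs2* belong by background knowledge but which were counted without them, were higher more often than lower. Of 17 tested, 12 rose and 3 fell in TregHAR cells, and 8 rose and 3 fell in Treghi cells, with medians of 0.53 and 0.22 against -0.01 and -0.005 over all genes. Among all genes 13.8% rose and 13.7% fell in TregHAR cells, and 12.8% and 13.2% in Treghi cells. The TregHAR median was 0.31 in the authors' normalized values, and the Treghi median was 0.40 with median scaling and 0.34 with a smaller offset. Besides *Il2ra* they included *Lta*, the cytokine lymphotoxin α, with 3.11 ± 0.32 and 2.56 ± 0.32, and *Tnfrsf18*, the receptor GITR of Treg cells, with 2.43 ± 0.15 and 1.80 ± 0.15. The 3 that fell were *Il7r*, the repressor *Bcl6* (-0.98 and -0.65) and the phosphatase *Dusp5* (-1.05 and -0.78). The interleukin 2 pathway is known to repress *Il7r* and *Bcl6*, but this background does not cover the fall of *Dusp5*. Whether interleukin 2 had a part in any of these differences was not tested. Between TregHAR and Treghi cells 0 of 17 were called, and *Tnfrsf18* had the smallest p (0.63 ± 0.15, adjusted p = 0.125).

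**Figure D3:**
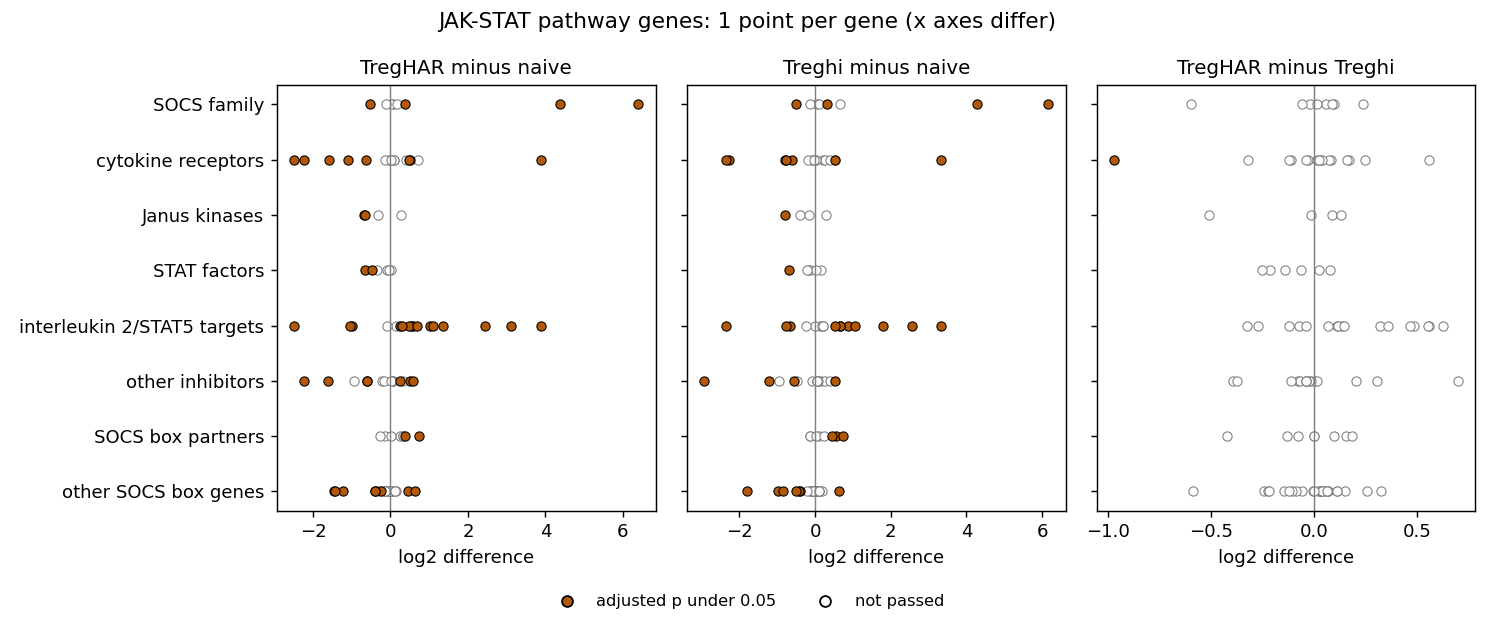
Log2 difference (x axis, own range in each panel) of the tested genes of 8 lists (rows) in TregHAR minus naive, Treghi minus naive and TregHAR minus Treghi cells, with 1 point per gene and filled points past an adjusted p of 0.05. *Socs2* and *Cish* are the 2 rightmost points of the first 2 panels, targets of interleukin 2 and STAT5 lie mostly right of 0, and *Il6ra* is the 1 filled point of the third panel.

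Of 15 other inhibitors of the pathway, 3 rose and 4 fell in TregHAR cells, and 1 rose and 3 fell in Treghi cells. *Usp18*, which dampens interferon signalling, gave -2.24 ± 0.36 and -2.93 ± 0.36, the phosphatase *Dusp2* -1.62 ± 0.15 and -1.22 ± 0.15, and *Ptpn6*, the phosphatase SHP-1, -0.60 ± 0.12 and -0.56 ± 0.12. *Pias4*, an inhibitor of activated STATs, rose in TregHAR cells (0.57 ± 0.12). Of 8 partners that the SOCS box uses for ubiquitination, 2 rose in TregHAR and 3 in Treghi cells and 0 fell. *Elob*, elongin B, gave 0.74 ± 0.10 and 0.55 ± 0.10, and *Nedd8*, the modifier that activates cullins, 0.37 ± 0.08 and 0.45 ± 0.08. Of 26 other genes with a SOCS box, 2 rose and 6 fell in TregHAR and 1 rose and 6 fell in Treghi cells, among them *Asb2* (-1.47 ± 0.19 and -1.79 ± 0.19) and *Spsb1* (-1.43 ± 0.12 and -0.84 ± 0.12). The share called over all genes was 27.5% in TregHAR and 26% in Treghi cells, and the counts of these 26 genes lay near it. These 3 lists had 0 calls between TregHAR and Treghi cells, with the smallest p for *Pias1* (-0.37 ± 0.10, adjusted p = 0.185), *Ube2f* (-0.42 ± 0.16, adjusted p = 0.349) and *Spsb1* (-0.59 ± 0.12, adjusted p = 0.085). Lower genes in these comparisons stand beside the brighter B cell and myeloid markers of naive arrays given above, and the part of those cells was not tested.

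The members' patterns were also compared with all other genes above background on at least 4 arrays, by Pearson's r over the 12 arrays. These values describe arrays that share 3 treatments and are dominated by the step between naive and Treg cells. *Cish* was most like *Bub1b* (0.995), *Pif1* (0.995) and *Kntc1* (0.995), which are genes of the mitotic checkpoint and of DNA maintenance. *Socs2* was most like *Cox17* (0.998), a copper chaperone of mitochondria, the centromere gene *Cenpw* (0.996) and the mitotic kinesin *Kif15* (0.996), and *Cish* and *Socs2* gave 0.994 with each other. *Socs1* was most like *Igtp* (0.935), an interferon-induced GTPase, followed by *Slc16a3* (0.905) and *Ccnf* (0.892). *Socs4* was most like *Micall1* (0.969), *E030030I06Rik* (0.959) and *Rapgef2* (0.956), all called lower in both kinds of Treg cell, and gave -0.918 with *Cish*. *Socs3* followed *Senp7* (0.893), *Fuz* (0.850) and *Ino80c* (0.841), and *Socs6* followed *Sp4* (0.938), *Ice1* (0.922) and *Ddx3x* (0.917). *Socs5* had the weakest likeness, with 0.770 for *Stxbp5*, 0.729 for *Ap2a2* and 0.720 for *Samhd1*. *Socs7*, above background on 1 array, was left out of this ranking.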

How the data were processed

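RNA of 12 samples was hybridized to Illumina Mouse WG-6 v2 BeadChips. The authors read the chips in GenomeStudio and deposited intensity values named non-normalized. Their mean was 256.6 on every array, so some scaling between arrays had been done. The authors also deposited log2 values made with lumi (background correction, variance stabilization and robust spline normalization), used as an alternative only. Here the intensities were background-corrected with normexp (offset 50), quantile normalized and taken to log2 in limma 3.58.1 (R 4.3.3). Probes brighter than the array's median on at least 2 arrays were kept (32081), and the kept probe with the highest mean stood for a gene. The background ceiling (log2 of 6.22 to 6.23) was the density peak plus 3 SDs. "At least" folds set dim arrays to the higher of the ceiling and their own value. Means of the 6 groups were fitted, treatments were compared as the average over FACS and MACS, and two-sided p-values were adjusted by Benjamini-Hochberg over 15663 genes (threshold 0.05). Alternatives covered background, scaling, probe choice, blocks, the methods' t-test and single arrays. The fit was checked on simulated data. Of the probes, 34885 had 1 gene, 18 several and 10378 none. The members and lists were chosen with earlier results of these data known. All members were named, with the 3 most similar genes each, and from each list up to 3 called genes by size or the smallest p. Results that need some withheld items are not reported here.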

Additional observations from a re-analysis of the deposited data

Results flagged for a closer look

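Of 45 sets of 4 arrays (each probe of the family in each kind of cell), 3 held an array far from the other 3, where chance flags about 1 set in 20. All 3 were dim probes, close to or under the background ceiling, and none was the probe that stood for its gene. The second *Socs4* probe was at a log2 level of 6.15 on Treghi MACS replicate 1, against 6.24 on the other 3 Treghi arrays, a gap of 0.962 of the whole range. A dim *Socs6* probe was at 5.83 on naive MACS replicate 2, against 5.91 to 5.92 on the other naive arrays (0.835 of the range). Another dim *Socs6* probe was at 6.12 on Treghi MACS replicate 2, against 5.96 to 5.98 on the other Treghi arrays (0.861 of the range).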

How the results depend on the processing

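Under the 27 alternatives *Cish* and *Socs2* stayed called in both comparisons with naive cells, *Socs4* in all for TregHAR and in 26 for Treghi cells, and *Socs1* in 21 for TregHAR and 10 for Treghi cells. The number of members called between TregHAR and Treghi cells was 0, except for 1 (*Socs3*) with the unadjusted p of the methods' t-test (-0.599, adjusted p = 0.454 with it). Differences that changed sign belonged to members that were not called. *Socs5* against naive cells gave -8.23e-05 (offset 16) and -0.0937 (MACS alone) in TregHAR and -0.00947 (MACS alone) in Treghi cells, and *Socs3* gave -0.221 in TregHAR cells (FACS alone). Between TregHAR and Treghi cells *Socs6* gave -0.0634 (mean of kept probes) and -0.0767 (FACS alone), *Socs4* 0.126 (arrays without *Eif2s3y* signal) and *Cish* -0.0112 (MACS alone). Leaving out each array in turn gave, against naive cells in TregHAR cells, -0.268 to 0.384 for *Socs3*, -0.0916 to 0.0969 for *Socs5* and -0.248 to 0.00244 for *Socs6*. Between TregHAR and Treghi cells it gave -0.0577 to 0.169 for *Socs1*, -0.0955 to 0.0541 for *Socs4*, -0.152 to 0.037 for *Socs5* and -0.0538 to 0.0814 for *Socs6*. The causes were not tested. With a replicate block, 4 members were called for TregHAR and 3 for Treghi cells against naive cells (*Socs1* was lost, adjusted p = 0.0559). The numbers were not taken to pair the samples, since the correlation of same-numbered deviations ran between -0.622 and 0.423. The highest, 0.423, was between naive FACS and naive MACS arrays, whose same-numbered replicates were also alike in *Eif2s3y* and *Xist*. The naive arrays may therefore not all be independent, which the fits did not take into account. The methods' unadjusted t-test called 6 targets of interleukin 2 and STAT5 between TregHAR and Treghi cells, all higher, and 0 after adjustment. The share of all genes that this unadjusted test called was not counted. Signal over background limits *Socs1*, *Socs4*, *Socs5*, *Socs6*, *Socs7* and the naive level of *Socs2*. The *Socs4* difference in TregHAR cells ran between -0.73 and -0.28 over the alternatives.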
